A study of Bos taurus with 12 samples.

Results

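Untreated biceps brachii was represented by 4 of the 12 arrays of the series, those labelled as coming from animals that received no treatment. All 12 animals were male cattle of 18 to 20 months, and each array carried labelled RNA from a biceps brachii sample taken after slaughter. In the dexamethasone group, 4 animals had been fed the synthetic glucocorticoid dexamethasone at 0.75 mg per head for 42 days. In the combination group, 4 animals had been fed dexamethasone at 0.66 mg per head for 21 days together with the β-adrenergic agonist clenbuterol for 28 days, at 2 mg in the opening week, 4 mg in the next and 6 mg afterwards. Of 24 animals kept in groups of 8, the 12 put on arrays were those with the best RNA, so the 4 untreated animals were not a random draw from their group.

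Limb muscle is a mixture of fibre types built from different members of the same gene families. Slow fibres contract with the myosin heavy chain MYH7, store oxygen on myoglobin and draw on mitochondrial respiration, whereas fast fibres use MYH1, MYH2 or MYH4 and lean more on glycolysis. Fibres are bundled by connective tissue and supplied by vessels and nerves, so RNA from a piece of muscle also carries transcripts of fibroblasts, vessel wall, blood and nerve.

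Levels are given as the log2 signal of a gene's probe minus the 75th percentile of its array, so that 0 is the 75th percentile and a step of 1 is a 2-fold difference. Errors are SDs over the 4 animals. A probe's brightness depends on its sequence as well as on the abundance of its target, so levels of different genes are listed in order of signal only, and comparisons are made within a gene between animals. Where a gene had several probes, the brightest was used, which for SRL meant a probe at 6.01 in place of another at -1.30.

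The 4 arrays did not share a slide. Controls 1, 2 and 3 were on the same slide and were scanned on the same day, whereas control 4 was on another slide, scanned on a later day, which it shared with animals 1, 2 and 3 of the dexamethasone group. The net signal of the negative control spots was 92.5 on the control 4 array and 35.8 to 43.7 on the other 3. The share of spots well above background was 57.2% on control 4 and 66.4% to 68.7% on the others. The lowest level well above background was -4.40 on control 4 and -6.03 to -5.52 on the others. For control 4, slide, scan day and animal therefore cannot be told apart. Pearson correlations between pairs of untreated arrays over all 11679 genes detected on the 4 arrays ran from 0.976 to 0.985, and those between untreated and treated arrays from 0.953 to 0.977. Genes are not independent replicates, so these values only describe the arrays.

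Of 19728 genes with a probe, 11679 (59.2%) were well above background on all 4 untreated arrays, 3239 on 1 to 3 of them and 4810 (24.4%) on none. Among the 3239, 1334 were detected on the 3 other arrays and missed on control 4, against 16 to 26 for each of the other animals. Without control 4, 13013 genes were detected on every remaining untreated array. The mean level lay above the 75th percentile for 5201 genes (26.4%), and the median of all genes was -2.94.

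The brightest probes were those of the contractile apparatus and of glycolysis. Of the 20 named genes with the highest mean signal, 13 encode proteins of the sarcomere or its calcium control: the troponins TNNC1 and TNNC2, the myosin subunits MYH1, MYH7, MYL1, MYL2 and MYL11, the tropomyosins TPM1 and TPM2, the actin ACTA1, the Z-disc protein MYOZ1, the myosin-binding protein MYBPC2 and the calcium pump ATP2A1. The glycolytic enzymes ALDOA, GAPDH, TPI1 and ENO3, the oxygen store MB, the small heat shock protein HSPB1 and the LIM-domain protein FHL1 made up the rest. The 20th gene, FHL1, stood at 8.17 ± 0.17 (SD, n = 4). All 8 spots of MB, myoglobin, and 7 of the 8 of TNNC2 were saturated on the untreated arrays, so their measured levels of 9.44 and 9.25 are lower bounds, with no rank or spread to be read. TNNC1, ALDOA and MYOZ1 had 2 saturated spots each, and no other gene had any in an untreated animal. GAPDH stood at 8.81 ± 0.06, and at 7.60 ± 0.20 by a second probe.

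**Figure D1:**
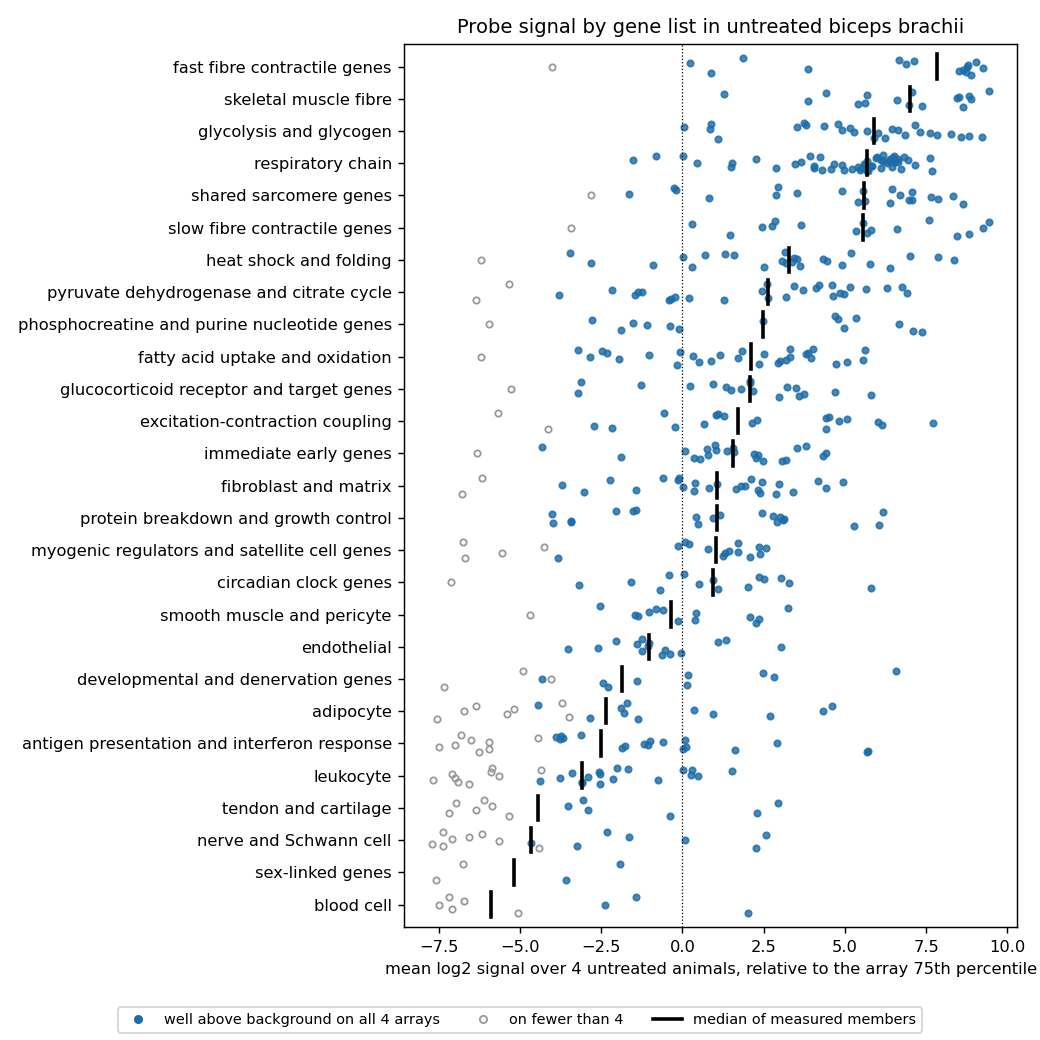
Mean log2 signal over the 4 untreated animals, relative to the array 75th percentile (x axis), of the measured genes of each of 27 lists (y axis, ordered by median). Filled points were well above background on all 4 arrays, open points on fewer, and bars mark list medians, from 7.82 for the fast fibre genes down to -5.90 for the blood cell genes.

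Fast fibre genes gave the highest median of any list, 7.82 over 16 measured genes, of which 15 were detected in all 4 animals, against a median of -2.94 over all genes. MYH1, the IIx heavy chain of fast fibres, read 8.82, 8.92, 8.90 and 8.86 in controls 1 to 4. The 4 animals thus lay within 0.10 of each other, and the SD of 0.04 was below the SD of 0.08 between spots of that probe; a second MYH1 probe read 8.41 ± 0.22. MYH4, the heavy chain of the fastest fibres in small mammals, was dimmer and less even, at 0.40, 0.40, 1.68 and 1.03. No probe was named MYH2. ATP2A1, the calcium pump of fast fibres, stood at 8.80 ± 0.12, the light chain MYL1 at 8.72 ± 0.17, and ACTN3, the fast-fibre α-actinin, at 6.87 ± 0.36.

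Fast troponin T and parvalbumin did not share that evenness. TNNT3, fast troponin T, read 6.69, 4.97, 0.99 and 2.84 in controls 1 to 4, a range of 5.70, with a spot SD of 0.06. Controls 1 and 2 lay above controls 3 and 4. In the treated animals the same probe ran from 1.40 to 7.48. PVALB, a soluble calcium buffer of fast fibres, read -0.03, -0.50, -1.82 and 3.23, with control 4 alone high. CASQ1, the fast calsequestrin, was the only fast fibre gene missed in an animal: its probe read -4.03 ± 0.83 and was not well above background on control 4.

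Slow fibre genes were bright as well, with a median of 5.55 over 17 genes and 16 detected in all animals, but they were less even. Their median SD was 0.57, against 0.18 for the fast fibre genes and 0.26 for all detected genes. Among the 10% of detected genes with the largest SD were 9 of the 16, and 4 of the 15 detected fast fibre genes. In each of these lists 2 genes had a range over 2. MYH7, the slow heavy chain, read 8.09, 8.54, 8.67 and 8.43, and the slow light chain MYL2 8.57, 9.05, 8.88 and 8.77, both with small spreads. TNNT1, slow troponin T, read 6.27, 6.63, 7.41 and 6.09. MYL6B, a slow essential light chain, read 4.53, 4.57, 7.92 and 4.34, so control 3 stood alone above the others by more than 3. The Z-disc protein MYOZ2 read 3.09, 2.41, 5.11 and 3.97, again with control 3 highest.

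Control 3 was the highest animal for 11 of the 16 detected slow fibre genes, where it was the highest for 25.9% of all detected genes. That count was 11 or 12 under quantile normalization, array median scaling, normexp correction and the authors' value table. Besides those above, the slow calcium pump ATP2A2 (2.01, 2.84, 3.56 and 2.59), its inhibitor PLN (2.00, 3.11, 3.61 and 2.68), the slow tropomyosin TPM3 (1.97, 2.35, 3.49 and 2.02) and the ancestral heavy chain MYH7B (0.70, 1.49, 2.35 and 1.32) had the same order at the top. The mean over the 17 slow fibre genes was 5.57 in control 3 and 4.47, 4.84 and 4.55 in controls 1, 2 and 4, while the 8 treated animals ran from 5.01 to 6.15. The mean over the 16 fast fibre genes was 5.66 in control 3, against 5.90 to 6.01 in the others. That mean includes TNNT3, whose wide range had its lowest value in control 3. By count, control 3 was the lowest animal for 6 of the 15 detected fast fibre genes, and control 1 also for 6. Control 3 was on the same slide as controls 1 and 2. Its lead was not confined to slow fibre genes. It was also the highest animal for 10 of 21 detected shared sarcomere genes and 11 of 25 fibroblast and matrix genes. For the leukocyte genes and for the antigen presentation and interferon genes it was the highest for 10 of 18 each. It was the highest for only 4 of 27 glycolysis and glycogen genes and 1 of 22 immediate early genes.

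Sarcomere genes common to all fibres had a median level of 5.58, with 21 of 22 detected in the 4 animals. ACTA1, skeletal α-actin, stood at 8.62 ± 0.20, TPM2 at 8.34 ± 0.14, LDB3, which links α-actinin at the Z-disc, at 7.87 ± 0.36 and MYOT, myotilin, at 7.64 ± 0.30. The giant protein TTN, titin, read 5.40 ± 0.40. The probes of NEB, nebulin, disagreed: the brightest read 5.61 ± 0.30, and the others 2.91 ± 2.12 and 2.45 ± 0.27, all detected in every untreated animal. XIRP1, a repeat protein of actin attachment sites, was dim and uneven at -2.45, -2.94, -1.66 and 0.42. Genes of excitation-contraction coupling, the step from membrane depolarisation to calcium release, had a median of 1.70 and 18 of 20 were detected. The triad protein TRDN stood at 7.71 ± 0.18 and STAC3, which couples the voltage sensor to the release channel, at 6.13 ± 0.06. RYR1, the release channel itself, read 4.42 ± 0.22. Only 1 of the 18 was among the 10% of largest SD.

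All 27 measured genes of glycolysis and glycogen turnover were detected in every untreated animal, and all had a mean level above the 75th percentile, where 26.4% of all genes did. Their median was 5.90. After ALDOA at 9.23 ± 0.13, GAPDH at 8.81 ± 0.06, TPI1 at 8.59 ± 0.14 and ENO3 at 8.28 ± 0.12 came PGAM2 at 7.83 ± 0.20 and LDHA at 7.61 ± 0.19. LDHB, the lactate dehydrogenase subunit of oxidative tissue, differed most among the bright members: it read 4.79, 4.74, 6.60 and 4.93, with control 3 alone high. PHKG1, the catalytic subunit of phosphorylase kinase, spread from -1.04 in control 1 to 1.16 in control 4. Phosphocreatine and purine genes had a median of 2.49, led by the cytosolic and mitochondrial creatine kinases CKM (7.36 ± 0.43) and CKMT2 (7.11 ± 0.24) and the adenylate kinase AK1 (6.66 ± 0.61).

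Respiratory chain genes were the most even large group. All 52 were detected in the 4 animals, 50 lay above the 75th percentile, the median level was 5.69 and the median SD 0.21. None of the 52 was among the 10% of largest SD. The small differences still had an order: control 3 was the highest animal for 28 and control 4 for 22. These animals were the highest for 25.9% and 30.6% of all detected genes. Under the other scalings the counts were 22 to 39 for control 3 and 8 to 16 for control 4. NDUFA4 read 7.68 ± 0.05, the ATP synthase subunit ATP5F1B 7.61 ± 0.22, NDUFV2 7.17 ± 0.22, the muscle isoform COX7A1 6.94 ± 0.28, ATP5F1E 6.81 ± 0.07 and NDUFA13 6.73 ± 0.09. Pyruvate dehydrogenase and citrate cycle genes had a median of 2.62, and 27 of 29 were detected in all animals. The succinate dehydrogenase subunits SDHB and SDHA stood at 6.75 ± 0.19 and 6.29 ± 0.41. PDK4, the kinase that shuts down pyruvate dehydrogenase when fat is burnt, read 4.24, 4.46, 4.54 and 5.26.

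Genes of fatty acid uptake and oxidation had a median of 2.10, with 29 of 30 detected, and 9 of the 29 were among the 10% of largest SD. Control 3 was the highest animal for 20 of these 29 genes and for 17 of 27 pyruvate dehydrogenase and citrate cycle genes; under the other scalings the counts were 19 to 21 and 14 to 19. FABP3, the muscle fatty acid carrier, read 4.33, 4.08, 5.80 and 4.66, the short-chain dehydrogenase ACADS 3.28, 3.52, 4.75 and 4.29, and the lipase LPL 2.86, 2.58, 3.81 and 2.54. PPARGC1A, a coactivator of mitochondrial genes, had the opposite order: 6.71, 6.02, 4.18 and 5.55, lowest in control 3. A second PPARGC1A probe had a mean of 0.43 and an SD of 1.12, close to the SD of 1.07 of the brighter probe.

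**Figure D2:**
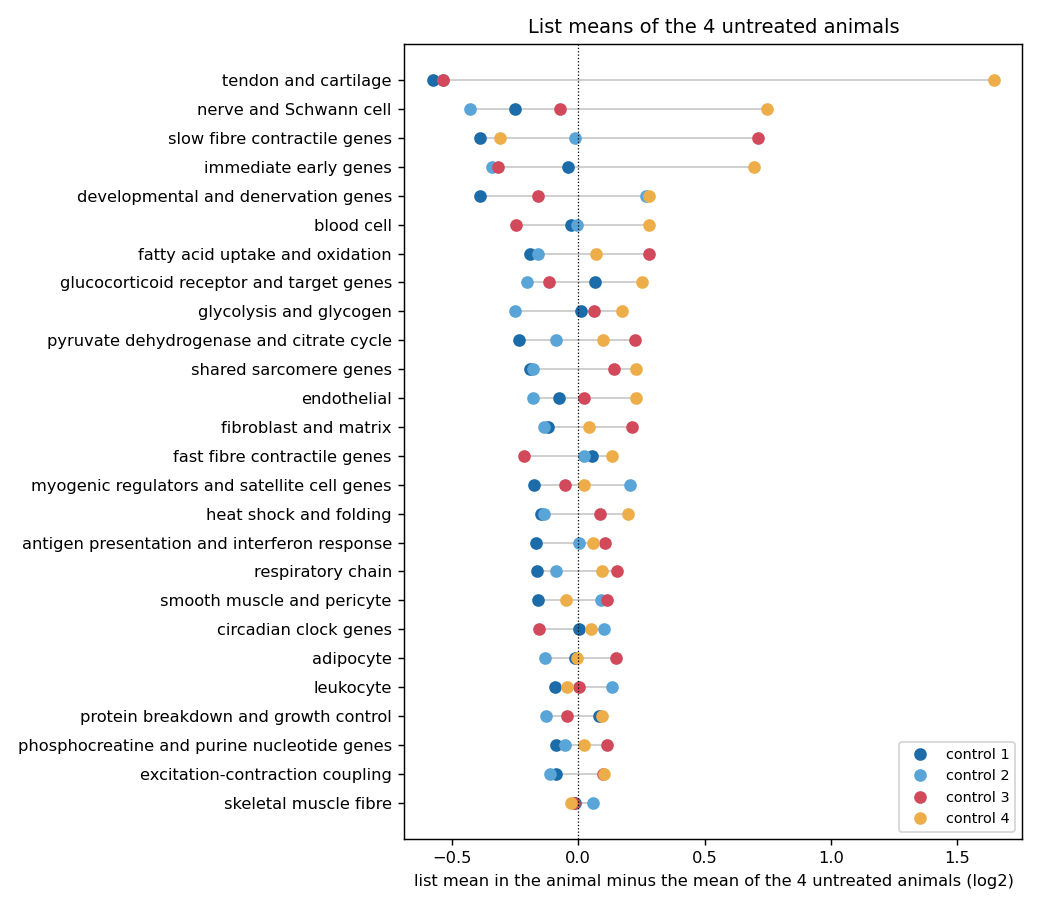
Mean over the measured genes of a list in each untreated animal minus the mean of the 4 animals, in log2 units (x axis), for lists of at least 8 measured genes (y axis, ordered by the largest deviation). Control 3 stands apart for the slow fibre genes (5.57 against 4.47 to 4.84) and control 4 for the tendon, nerve and immediate early genes, whereas the 4 skeletal muscle fibre means lie within 6.65 to 6.74.

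Among myogenic regulators, 14 of 18 genes were detected in all untreated animals, with a median level of 1.03. MEF2D and MYF6, transcription factors of mature fibres, stood at 2.57 ± 0.24 and 2.40 ± 0.76, and MYOD1 at 2.08 ± 0.25. MYF6 read 2.00, 1.95 and 2.11 in controls 1 to 3 and 3.54 in control 4. MYOG, which drives terminal differentiation, read 1.05, 2.45, 1.44 and 0.09. PAX7, the marker of satellite cells, was not well above background on any untreated array, and MYF5 was dim at -3.83 ± 0.29.

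Genes of developing or denervated muscle had a median of -1.85, and 9 of 12 were detected in all animals. ANKRD1, a stretch-responsive titin partner, read 4.78, 5.98, 6.93 and 8.57. ACTC1, cardiac actin, read -1.32, 2.17, -0.15 and -0.17, with control 2 alone high. The embryonic heavy chain MYH3 was present at -2.48, -1.48, -3.30 and -1.92, and the perinatal heavy chain MYH8 was not well above background in any untreated animal. The receptor subunit CHRND was higher in controls 1 and 2 (-0.17 and -0.44) than in controls 3 and 4 (-2.37 and -2.62).

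All 20 measured genes of protein breakdown and growth control were detected. The ubiquitin ligases of atrophying muscle, TRIM63 and FBXO32, were bright at 6.05 ± 0.69 and 5.29 ± 0.45. TRIM63 read 6.89, 5.41, 5.57 and 6.33. DDIT4, an inhibitor of mTOR signalling, stood at 6.17 ± 0.23. MSTN, myostatin, the brake on muscle mass, was dim and uneven at -2.75, -3.65, -5.39 and -4.15, with the same order at its ends as PPARGC1A: control 1 highest and control 3 lowest.

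Of the glucocorticoid receptor and 18 target genes, 18 were detected in the 4 animals, at a median of 2.08. The receptor NR3C1 read 3.42, 3.38, 2.57 and 2.53. PER1, a clock gene that glucocorticoids induce, stood at 5.81 ± 0.21, the phosphatase DUSP1 at 4.70 ± 0.27, KLF9 at 3.75 ± 0.19 and the receptor co-chaperone FKBP5 at 3.57 ± 0.51. The metallothionein MT2A was the least even at 2.11, 0.15, -0.52 and 1.97. Of 15 clock genes, 14 were detected; after PER1 came CRY2 at 3.28 ± 0.42, HLF at 3.05 ± 0.18 and TEF at 2.52 ± 0.17.

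Immediate early genes, which are switched on within minutes of a stimulus, were uneven between animals. Of 23 measured, 22 were detected in all animals, 17 of these were among the 10% of largest SD, and the median SD was 0.73. Control 4 was the highest animal for 15 of the 22, and for 30.6% of all detected genes. The count was also 15 under each of the 4 other scalings, under which control 4 was the highest for 27.5% to 41.3% of all detected genes. ATF3 read 3.59, 3.21, 4.04 and 6.50, BTG2 0.55, -0.02, 0.20 and 3.44, and JUN 2.68, 2.84, 2.97 and 4.29. NR4A3, an orphan nuclear receptor, went the other way, at 3.70, 1.76, -0.56 and 0.63. The list mean was 1.92 in control 4, 0.88 to 1.18 in the other 3 and 0.43 to 2.30 in the treated animals. The control 4 array had its own slide and scan day among the untreated animals, as given above, and their part in this was not tested.

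Heat shock and folding genes had a median level of 3.28, and 25 of 26 were detected. HSPB1, HSPB8 and CRYAB, small heat shock proteins that sit on the Z-disc and on desmin, stood at 8.37 ± 0.15, 7.87 ± 0.47 and 7.01 ± 0.43. HSPA1A, the inducible HSP70, read 6.15, 6.17, 6.07 and 7.15, with control 4 alone high. Of the antigen presentation and interferon genes, 18 of 26 were detected in the 4 animals; the class I genes BOLA and B2M stood at 5.71 ± 0.55 and 5.68 ± 0.33, and 4 interferon-induced genes, MX2, IFI44, IFIT2 and IFIT3, were not well above background on any untreated array. Of 4 measured sex-linked genes, the Y-linked ZFY (-1.92 ± 0.33) and UTY (-3.60 ± 0.21) were detected in all 4 animals, which are labelled male, and the testis genes SRY and TSPY in none. XIST was not matched to a probe.

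The labelled tissue was checked against skeletal muscle fibre markers: all 16 were detected in every untreated animal and all 16 had mean levels above the 75th percentile. Their mean was 6.67, 6.74, 6.66 and 6.65 in controls 1 to 4. The lists for other cell types had medians from -5.90 to 1.05, of which the probes' own brightness is a part. Where such a marker differs between animals, fewer cells of a type and less RNA per cell cannot be told apart in these bulk samples.

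Fibroblast and matrix genes had a median of 1.05, the highest of these lists, and 25 of 27 detected in all animals. SPARC, a collagen-binding matrix protein, stood at 4.94 ± 0.15, the proteoglycan DCN at 4.43 ± 0.23, MGP at 4.16 ± 0.70 and the collagens COL3A1 and COL1A1 at 3.41 ± 0.40 and 2.87 ± 0.60. ASPN, a small proteoglycan, differed most among members above -1 in mean level: -0.95, -0.92, 1.13 and 0.23. The list mean was 0.45 to 0.80 in the 4 animals.

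Vessel genes were detected nearly throughout. All 15 endothelial genes were well above background in every untreated animal, at a median of -1.04, and none was among the 10% of largest SD. Control 4 was the highest animal for 10 of the 15 (8 to 11 under the other scalings), and for 30.6% of all detected genes. The part of its slide and background in this was not tested. EGFL7 stood at 3.03 ± 0.19, ENG at 1.33 ± 0.40 and VWF, von Willebrand factor, at -0.04 ± 0.43, and the receptor TEK read -0.51, -0.49, -0.53 and -0.58. Of 14 smooth muscle and pericyte genes, 13 were detected, with a median of -0.36: SMTN at 3.26 ± 0.28, CNN1 at 2.35 ± 0.31, ACTA2 at 2.26 ± 0.20 and RGS5 at 2.09 ± 0.16.

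Leukocyte markers had a median of -3.09, and 18 of 27 were detected in all animals. Macrophage genes led: the complement subunits C1QA and C1QB at 1.51 ± 0.30 and 0.28 ± 0.33, the scavenger receptor CD163 at 0.48 ± 0.43 and the receptor CSF1R at 0.25 ± 0.35. The pan-leukocyte PTPRC read -2.54 ± 0.11. CD3D, IL7R, CD79B, MS4A1 and ITGAM were not well above background on any untreated array. GZMB was not detected by the probe used, at -5.90, and a second probe, at -5.76, was well above background on 2. Of 8 blood cell genes, 3 were detected in every animal, with HBA, the α-globin, at 1.60, 2.45, 1.68 and 2.38. HBB was detected on 3 arrays, and ALAS2, SLC4A1 and PPBP on none.

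Fat markers gave a divided reading. Of 18 adipocyte genes, 11 were detected in all animals, led by AGPAT2 (4.59 ± 0.29), CEBPA (4.33 ± 0.28) and the desaturase SCD (2.69 ± 0.60), genes that other cells express too. A second CEBPA probe read 0.54. Another SCD probe read -0.58, and the remaining SCD probes, at -7.69 to -6.81, were not well above background on any untreated array. The adipokines ADIPOQ and LEP and the lipogenic regulator THRSP were not well above background in any untreated animal. FABP4, the adipocyte fatty acid carrier, read -2.56, -2.63, -3.83 and -4.92 and was detected in 3. The lipid droplet coat PLIN1 was detected in 2.

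Tendon genes set control 4 apart. TNMD, tenomodulin, a membrane protein of tendon cells, read -7.67, -7.43 and -7.19 in controls 1 to 3, where it was not well above background, and 0.93 in control 4. COMP, a cartilage and tendon matrix protein, read -7.47, -7.36 and -7.19 against -1.48, and MKX, a tendon transcription factor, -7.63, -6.72 and -7.55 against -3.48. Each of these 3 genes was detected in control 4 and in no other untreated animal. Of the 6 members detected throughout, 4 were highest in control 4. FMOD read -1.26, -0.92, -0.45 and 1.08 and THBS4 1.87, 1.32, 2.29 and 3.67, both with control 4 at the top. CILP, a cartilage matrix protein, was highest in control 1 (3.87, 3.25, 2.31 and 2.38). SCX and COL2A1 were not detected in any. The mean over all 12 was -1.89 in control 4, -4.11 to -4.07 in the other 3 and -4.60 to -2.90 in the treated animals. Over the 6 detected throughout it was -0.19 in control 4 and -1.14 to -0.79 in the others. The negative control signal was higher on that array (92.5), where the undetected SCX read -6.24 against -7.88 to -7.33 on the others, and the part of slide and background in these gaps was not tested.

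Nerve and Schwann cell genes also leaned to control 4, which was the highest animal for 5 of the 7 detected throughout. The mean of those 7 was -0.45 there and -1.37 to -0.99 in the other 3. Over all 15, of which 8 were not detected throughout, it was -3.21 there and -4.38 to -4.02 in the others, and the part of that array's higher background was not tested. UCHL1, a neuronal deubiquitinase, read -3.70, -3.18, -1.73 and -0.72, and the myelin gene MBP -3.69, -3.44, -3.37 and -2.52. The brightest members, CNP and PMP22, stood at 2.56 ± 0.33 and 2.27 ± 0.35. NEFL, NEFM, L1CAM, PRPH and MAG were not detected in any untreated animal.

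Over the 11679 detected genes the median SD between the 4 untreated animals was 0.26, and the median SD between spots of a probe on the same array was 0.07; the SD between animals was the larger for 92.3% of genes. Spots share their labelling, hybridisation and slide, which the SD between animals includes. Over controls 1 to 3, which shared a slide, the median SD was 0.23. In the treated groups the median SD over the same genes was 0.33 with dexamethasone and 0.27 with the combination. The highest and lowest untreated animals were more than 1 apart for 2067 genes (17.7%) and more than 2 apart for 223 (1.91%). Leaving out an animal cannot raise the count past 2, which was 153, 176, 133 and 122 without controls 1, 2, 3 and 4.

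**Figure D3:**
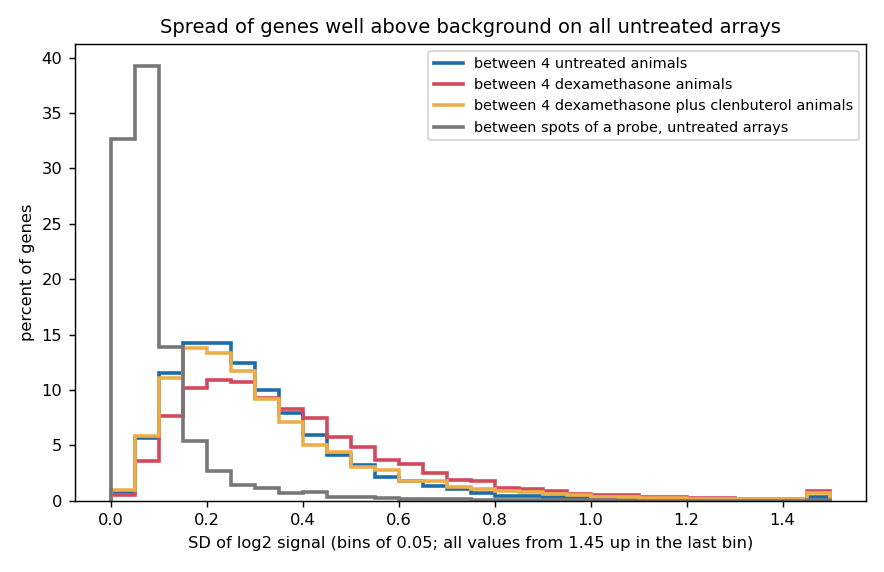
Distribution of the SD of log2 signal (x axis, bins of 0.05) over the 11679 genes detected on all untreated arrays, as percent of genes (y axis), for the 4 animals of each group and for spots of a probe on the untreated arrays. The spots have a median SD of 0.07, the untreated animals 0.26 and the dexamethasone animals 0.33.

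BARX2, a homeobox transcription factor, had the largest SD, 3.48. It read 2.48, 1.41, -4.43 and -3.56, so controls 1 and 2 were high and controls 3 and 4 low, with no overlap and a gap of 4.97. The same probe split the treated animals: it was high in combination animals 1 and 3 (1.51 and 1.37) and between -5.57 and -3.57 in the other 6. CIB2, a calcium- and integrin-binding protein, ran with it at 1.87, -0.45, -3.76 and -3.11, and was also highest among treated animals in combination 1 and 3 (0.23 and 0.34). TNNT3 had the same order of animals, and its highest treated values, 7.27 and 7.48, were again those of combination 1 and 3. Controls 1 and 2 shared a slide with control 3 and not with control 4, and combination animals 1 and 3 shared theirs with combination animal 2 and not with 4.

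Genes on which controls 1 and 2 both exceeded controls 3 and 4 by more than 1 numbered 28, and the reverse 50; the 4 other ways of splitting the animals into pairs gave 6 to 18. Among the 28 were MSS51, a mitochondrial protein of fast muscle (3.11, 2.63, 0.50 and 0.26), the cystatin CST6 (5.52, 4.47, 2.56 and 2.88), IRX3 (-1.89, -1.60, -5.20 and -3.96) and METTL21C, a muscle methyltransferase (0.02, -1.82, -4.77 and -2.87). Among the 50 were the potassium channel KCNC4 (-1.10, -0.86, 2.31 and 2.39), the hindlimb homeobox factor PITX1 (-3.21, -2.80, 0.12 and 0.10), C5orf23 (-0.14, -0.87, 2.56 and 3.54) and CYP1B1 (-4.50, -3.99, -1.45 and -0.45). PITX1 split the treated animals in the reverse way to BARX2. It was low in combination animals 1 and 3 (-3.54 and -3.36) and between -1.26 and -0.11 in the other treated animals. MSS51 and CST6 were chosen after their values were seen.

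Other genes of large spread set a single animal apart. Control 3 alone was more than 1 above the others for 68 genes and more than 1 below for 60, and control 4 for 93 and 57, against 34 to 40 for controls 1 and 2. TBC1D4, which holds the glucose transporter GLUT4 inside the fibre until insulin acts, read -3.06, -3.40, 1.89 and -3.28, and the 8 treated animals ran from -2.56 to 2.36. The light chain MYL6B likewise was 7.92 in control 3, 4.34 to 4.57 in the other 3, and 6.58 to 8.81 in every treated animal. SCD5, a desaturase, and BDH1, a ketone body enzyme, were also highest in control 3, at 0.89 against -3.43 to -2.16 and at 1.91 against -2.46 to -0.35. TATDN2, a nuclease-like protein, was low in control 3 alone (-5.23, against -1.56 to -1.17), and IGFLR1 was low in control 1 alone (-3.07, against 0.34 to 1.03). The histone gene H2AC6 had the second-largest SD, 3.22, but its spots differed by an SD of 1.60 on the same array.

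**Figure D4:**
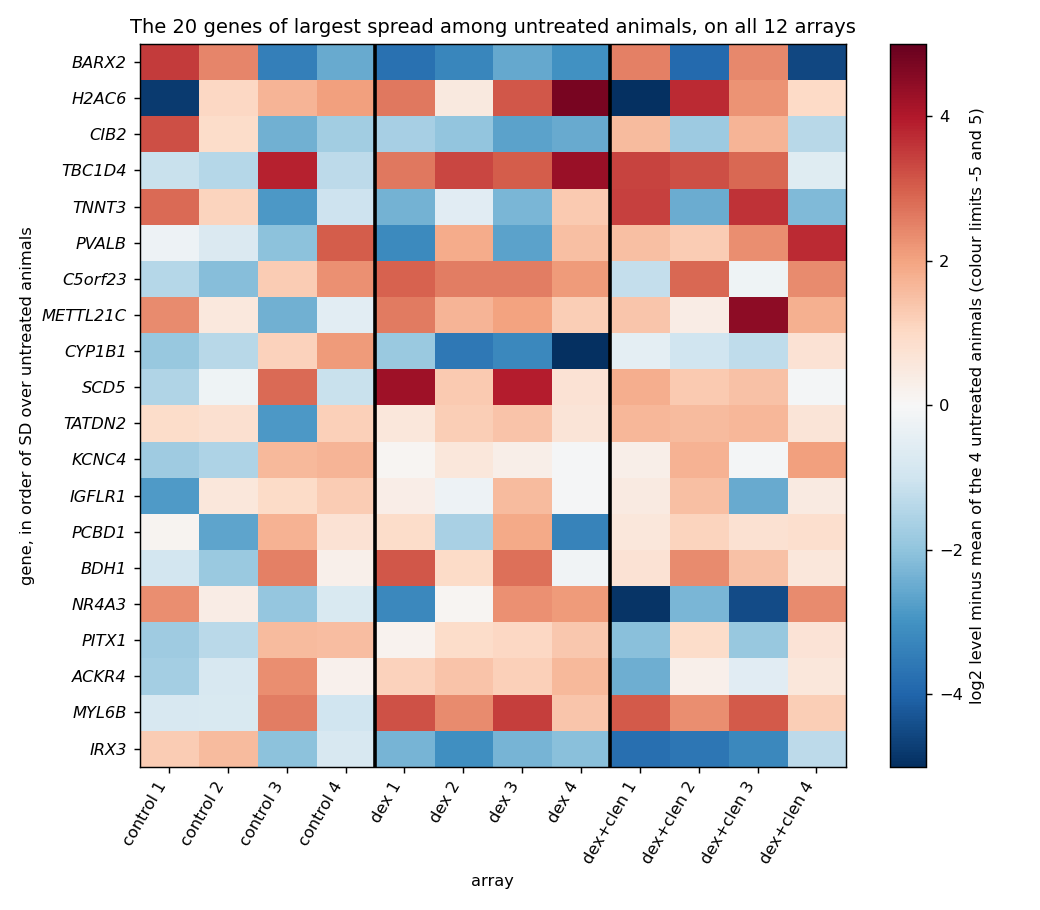
Log2 level minus the mean of the 4 untreated animals (colour, limits -5 and 5) on all 12 arrays (x axis; dex, dexamethasone; dex+clen, dexamethasone plus clenbuterol) of the 20 named genes with the largest SD over the untreated animals (y axis). BARX2, CIB2 and TNNT3 are high in controls 1 and 2 and in combination animals 1 and 3, and MYL6B is low in controls 1, 2 and 4 alone.

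At the other end, PJA1, PHTF1, CLINT1, SYNM and MED10 had the smallest SDs, from 0.01 to 0.02. SYNM, the intermediate filament protein synemin, read 7.38, 7.40, 7.39 and 7.40. These values lay closer together than spots of their probes, whose SDs were 0.04 to 0.11, so their order carries no information. Of the 1168 genes making up the 10% of largest SD among untreated animals, 478 (40.9%) were also among the 1168 of largest SD within the treated groups.

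Untreated animals were then compared with the treated ones, to see which genes of the baseline differ from the rest of the series. Controls 1, 2 and 3 were alone on their slide and scan day, and control 4 was the only untreated array to share a slide with treated ones, so treatment is largely confounded with slide and scan day. Of 13669 genes tested with limma (contrast of the untreated mean with the mean of both treated group means, Benjamini-Hochberg), 33 (0.241%) passed an adjusted p of 0.05: 29 higher (0.212%) and 4 lower (0.0293%) in untreated muscle. At an unadjusted p of 0.05, 1779 passed. For 26 of the 33, and 199 (1.46%) of all genes tested, the 4 untreated and 8 treated values did not overlap. The contrast pools treatments, and 32 of the 33 genes did not overlap with the dexamethasone group. Those 33 were selected partly on these same dexamethasone values, and the share over all genes tested was not counted, so this count carries no weight of its own.

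LIPG, endothelial lipase, read -2.73, -2.67, -3.31 and -2.81 in untreated animals and -6.79 to -4.66 in the treated, where it was well above background in 2 of 8. Its fitted difference was 2.75 (SE 0.28, limma adjusted p = 0.00537), and a second probe gave 2.48. On the shared slide LIPG read -2.81 in control 4 and -6.79, -6.20 and -5.76 in dexamethasone animals 1, 2 and 3. EIF4B, a translation initiation factor, read -1.68, -1.47, -1.25 and -1.49 against -6.02 to -2.40 and was well above background in 4 of 8 treated animals. Its fitted difference was 3.14 (SE 0.43, adjusted p = 0.0148). For both genes the other treated values were not well above background, so the size of these differences is not exact. The transcription factor OSR1, a marker of connective tissue cells, read 0.23, 0.83, -0.12 and -0.25 against -3.29 to -1.12, a difference of 2.59 (SE 0.42, adjusted p = 0.0354). NTRK3, a neurotrophin receptor, differed by 2.45 (SE 0.44, adjusted p = 0.0491) and CRISPLD2, a secreted matrix protein, by 2.14 (SE 0.28, adjusted p = 0.0134). A second probe of CRISPLD2, at -1.03 in untreated muscle, differed by 0.12, so its 2 probes disagree.

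The 4 genes that were lower in untreated muscle were AMPD3, an AMP deaminase, by -1.55 (SE 0.27, limma adjusted p = 0.0446), the HSP70 partner DNAJA1 by -1.17 (SE 0.21, adjusted p = 0.0481), the signalling protein LEFTY2 by -0.93 (SE 0.17, adjusted p = 0.0494) and the RNA-binding protein SAMD4A by -0.89 (SE 0.16, adjusted p = 0.0491). DNAJA1 read 1.51, 1.59, 1.31 and 1.89 in untreated animals and 2.12 to 3.57 in the treated, and SAMD4A -2.47, -2.37, -1.94 and -1.99 against -1.70 to -0.89, so neither gene overlapped. AMPD3 read -1.21, -0.93, -1.43 and -0.78 in untreated animals and -0.40 to 1.17 in the treated. LEFTY2 was well above background on only 1 untreated array and 5 treated ones, so its difference is not exact either, and with normexp correction its adjusted p was 0.926.

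**Figure D5:**
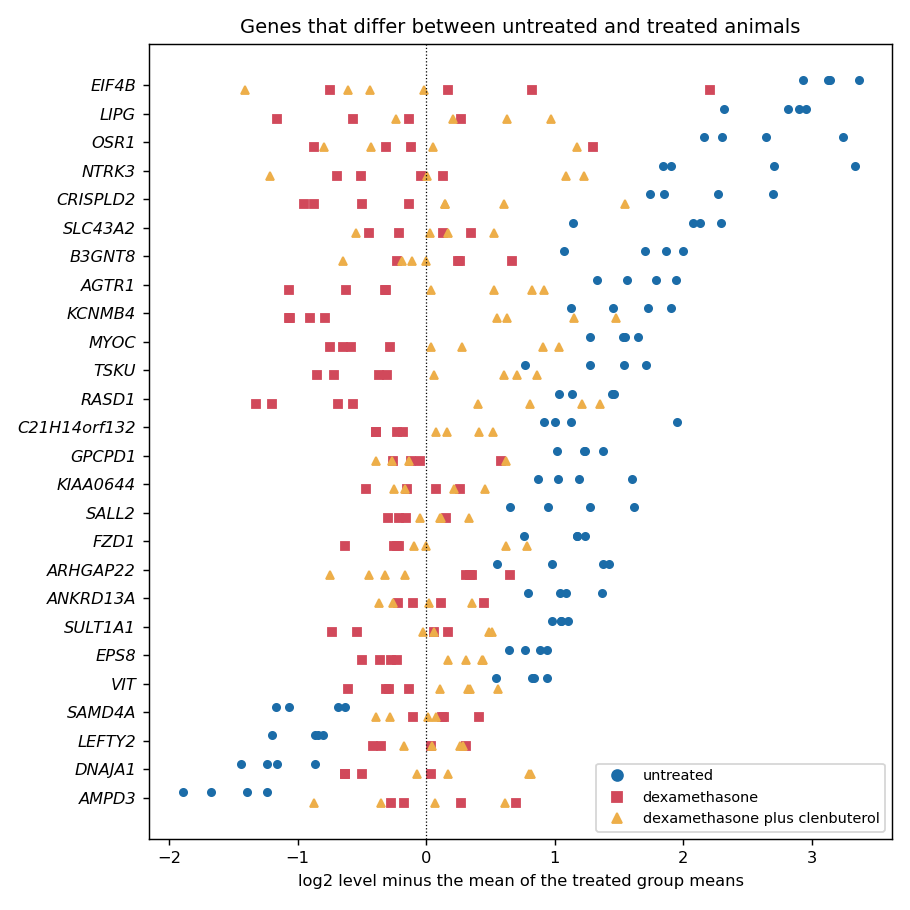
Log2 level minus the mean of both treated group means (x axis) of each animal for the 26 named genes past the threshold (y axis). Circles are the 4 untreated animals, squares dexamethasone and triangles dexamethasone plus clenbuterol. EIF4B, LIPG and OSR1 are among the genes higher in untreated animals, and AMPD3, DNAJA1, LEFTY2 and SAMD4A are lower in untreated animals.

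Only 3 of the 485 tested members of the 27 lists passed: RASD1, a dexamethasone-induced Ras protein, was higher in untreated muscle (limma adjusted p = 0.0378; 0.612 against the combination alone), and AMPD3 and DNAJA1 were lower. At an unadjusted p of 0.05, 100 of the 485 (20.6%) passed, against 13.0% of all genes tested. None of the 16 fast and 17 slow fibre genes and none of the 52 respiratory chain genes passed after adjustment; unadjusted, 1, 7 and 0 did, the 7 slow fibre genes all lower in untreated animals. The median difference was 0.12 for fast fibre genes, -0.52 for slow fibre genes and -0.03 for respiratory chain genes, against -0.03 for all genes. A further fit set the second scan day, that of control 4, as a block against the other days together. There the medians were -0.06 for the fast fibre genes and 0.06 for the respiratory chain genes, both of the opposite sign. For the slow fibre genes the median was -0.18. Of 26 heat shock and folding genes 19 had an unadjusted p under 0.05, all lower in untreated animals, with a list median of -0.70. Of 25 fibroblast and matrix genes 12 did, all higher, with a median of 0.71, as did 9 of the 19 glucocorticoid receptor and target genes, all higher, with a median of 0.67. Of 21 leukocyte genes 6 did, all higher, with a median of 0.56. The fibroblast and matrix list means of single animals nevertheless overlapped. They were 0.45 to 0.80 in untreated animals, -1.01 to 0.46 with dexamethasone and -0.18 to 0.82 with the combination. FKBP5 read 3.35, 2.99, 3.80 and 4.16 in untreated animals and -0.01 to 4.66 in the treated, and PDK4 differed by 1.50 (SE 0.31) with no overlap; neither passed (limma adjusted p = 0.152 and 0.0732).

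The calls depended on few animals. No gene passed without control 1 or without control 2, where 1102 and 1229 had an unadjusted limma p under 0.05, and 14 and 13 passed without controls 3 and 4. Without dexamethasone animals 1, 2, 3 and 4, 106, 20, 12 and 45 passed, and without combination animals 1 to 4, 50, 21, 9 and 65. Treated arrays were scanned on the second, the third and the fourth day. Fitting the second day, that of control 4, as a block against the other days together left 2 genes, and slide as a random block 18. Against dexamethasone alone 84 genes passed and against the combination 6; the difference between the treated groups was not tested.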

How the data were processed

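Total RNA was labelled with a single dye and hybridised to 12 Agilent bovine arrays. Per the file headers, the authors' scanner files were made with Agilent Feature Extraction 9.5.1.1 and hold processed signal intensity values per spot, background-subtracted by that software. The deposited value table holds normalized intensity values, and the sources used here do not give its steps, scale or centring; it ranked probes as the scanner files did (Spearman at least 0.999996) and served as an alternative.

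Here log2 of the processed intensity minus the array 75th percentile was taken, outlier spots were dropped, spots of a probe were averaged (21475 probes from 42990 spots), and a gene was read from its probe of highest mean over the 12 arrays. A probe was detected on an array where at least 50% of its spots were well above background. Of the probes, 9993 were named by gene number, 3410 by accession and 383 by symbol through a RefSeq gene table (ARS-UCD2.0), 3483 through a human match given in the files and 4206 kept the file's name.

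Untreated animals were compared with treated ones with limma 3.58.1 (R 4.3.3) on genes detected on at least 4 of 12 arrays. On simulated data for this comparison (13669 genes, 10 draws, 200 changed genes), 59.4% of changes of 1 and 94.6% of changes of 2 on the log2 scale were recovered, with 9.9 false calls per draw. The draws held independent normal noise, with no slide, scan day or background effect and no difference between the treated groups. These rates therefore do not cover the confounding of treatment with slide and scan day in the real arrays. All else is description. Replicate numbers only follow sample order. The p-values weigh a difference between group means against the spread between animals within groups, and the number of animals limits their precision.

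Genes named are the 20 brightest, up to 6 brightest members of each list, markers undetected in untreated muscle, the 20 of largest and 5 of smallest SD, the 5 largest passing differences in each direction and a fixed set (the myosin heavy chains, myogenic factors, atrophy, hormone and fuel genes); list members beyond these were chosen after their values were seen. The samples, lists and rules were chosen with earlier results of these data known. Alternatives were other normalizations, the deposited table, filters, probe choice, slide and scan day blocks, and leaving out each animal. Some genes the rule names are not reported here.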

Additional observations from a re-analysis of the deposited data

Results flagged for a closer look

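Of 221 values or list means over the 4 untreated animals that were checked, 18 had an animal far from the other 3, by Dixon's ratio of the gap to the range; chance gives about 1 in 20, a rate that does not apply to the genes chosen for their large SD over these animals (MYL6B, TBC1D4, TATDN2, H2AC6 and IGFLR1 here). Control 4 stood apart on 6: MYF6 at 3.54 (others 1.95 to 2.11), HSPA1A at 7.15 (6.07 to 6.17), ENG at 1.93 (1.09 to 1.18), RGS5 at 1.85 (2.17 to 2.18), the mean of the tendon and cartilage genes at -1.89 (-4.11 to -4.07) and the negative control signal at 92.5 (35.8 to 43.7). Control 3 stood apart for MYL6B at 7.92 (4.34 to 4.57), TBC1D4 at 1.89 (-3.40 to -3.06), TATDN2 at -5.23 (-1.56 to -1.17) and C1QA at 1.97 (1.33 to 1.38).

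Control 1 stood apart for H2AC6 at -5.48 (0.36 to 1.37), IGFLR1 at -3.07 (0.34 to 1.03), LEFTY2 at -6.07 (-5.74 to -5.67), AHSP at -2.83 (-2.29 to -2.23), BOLA-DRA at 1.37 (1.65 to 1.70) and HSPB1 at 8.15 (8.42 to 8.46). Control 2 stood apart for ACTA2 at 2.56 (2.14 to 2.17) and for the mean of the skeletal muscle fibre markers at 6.74 (6.65 to 6.67), a gap smaller than the SD between animals of most of its members.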

How the results depend on the processing

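The count of detected genes ran from 11695 to 13013 when each untreated animal was left out and was 11074 when all spots had to be above background. Genes with a range over 2 numbered 223. The count was 110 with normexp correction and 1118 with no filter on dim probes. It was 122 to 176 when each animal was left out, a step that cannot raise it. Of the 20 named genes of largest SD, 14 to 19 stayed among the 20 under the 4 other normalizations and 11 to 17 without each animal. The 33 calls (29 higher, 4 lower in untreated muscle) became 9 (9 and 0) with no filter on dim probes, 84 (80 and 4) against dexamethasone alone, 6 (4 and 2) against the combination, 2 (2 and 0) with the scan day of control 4 fitted as a block and 18 (18 and 0) with slide as a random block, while quantile normalization and array median scaling left 1 lower gene each and the values of the authors' table left 0. Leaving out each of the 12 animals gave 0 to 106 calls, 0 to 90 higher and 0 to 16 lower; it was 0 without control 1 or 2, 14 and 13 without controls 3 and 4, 106, 20 and 12 without dexamethasone animals 1, 2 and 3, 45 without dexamethasone animal 4, and 50, 21, 9 and 65 without combination animals 1 to 4. None of the 26 calls with a gene symbol reversed under these alternatives; each kept its call in 4 (LEFTY2 and VIT) to 20 (LIPG) of 22. No paired analysis was possible because the replicate numbers follow sample order only. Genes read near background, more of them on control 4, are limited by signal over background.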

Other observations

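Homeobox genes were looked at after BARX2, PITX1 and IRX3 were seen among the genes of largest spread, so the list carries no independent weight. These transcription factors keep a record of position along the body and limb. Of 98 measured, 36 were detected in all 4 untreated animals, and 10 of the 36 (27.8%) were among the 10% of detected genes with the largest SD. For 12 of the 36 (33.3%), controls 1 and 2 both exceeded controls 3 and 4, against 18.0% of detected genes, and for 6 (16.7%) the reverse held, against 23.1%.

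HOXD9 read 3.53, 3.15, 2.06 and 1.22 in controls 1 to 4, MSX1 -1.48, -1.24, -3.21 and -3.47, and MEIS1 -0.91, -0.93, -2.17 and -2.35. IRX5, a relative of IRX3, read -1.52, -1.40, -6.68 and -3.02 and was not well above background in control 3. HOXA11 and HOXA13, which mark the distal limb, went the other way: HOXA11 read -7.47, -7.06, -3.60 and -5.73, and HOXA13 -7.74, -7.51, -3.47 and -6.35, each well above background in control 3 alone among untreated animals. In treated animals HOXA11 read -6.43 in combination animal 4 and -5.23 to -1.76 in the others. HOXA13 read -7.09 in combination animal 4 and -4.43 to -2.39 in the others. The labels give no position of the sample within the muscle.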
